A study of Xenopus laevis with 12 samples.

Results

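By counts scaled to the library total, retinoic acid (RA) at least doubled the RNA of 52 gene IDs at every concentration used. These were measured in explants of Xenopus laevis foregut endoderm, and their level at 500 nM was nearly the same as at 25 nM. They were chosen from 44478 IDs by their group means in CPM, which is a count divided by the library's total count and scaled to a common total. For each concentration a log2 ratio L was formed from the mean of the RA libraries over the mean of the DMSO libraries, each with 0.5 CPM added. The IDs had a DMSO mean of at least 0.5 CPM, a highest group mean of at least 5 CPM, L25, L200 and L500 all at least 1, and L500 within 0.3 of L25. That limit is a difference of about 1.23-fold between the means with 0.5 CPM added. Both floors were passed by 14680 IDs, and 118 of these were induced at every concentration. Of the 118, the 52 made up 44.1%, a further 65 stood at least 0.3 higher at 500 than at 25 nM, and 1 stood at least 0.3 lower.

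Foregut endoderm, the embryonic tissue that lines the anterior gut and from which lung, liver and pancreas bud, was cut from wild-type embryos of the stock NXR_0031 at Nieuwkoop-Faber (NF) stage 15. It was held in culture to NF stage 25, about 16 hours at 15 °C, in 4 groups of 3 pools: vehicle (0.1% DMSO), and RA at 25, 200 or 500 nM. All groups were of the same genotype and tissue, and each pool of 8 explants gave 1 library and counts as 1 biological replicate per the labels. Clutches and days are not given in the labels. The p-values below judge differences between groups only against the spread among pools within groups.

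RA is a vitamin A derivative that enters the nucleus and binds RA receptors, which sit on DNA in pairs with retinoid X receptors and recruit coactivators once bound. Among its textbook targets are genes of its own breakdown and anterior Hox genes, and in the foregut it acts on the position and identity of organ fields. A response that has levelled off is one that a higher concentration does not raise further. The IDs of the deposited tables carry no gene names, and 0 of them matched the genes that RefSeq lists for the build Xenopus_laevis_v10.1. The 52 IDs are therefore described by their levels, and no name, role or sequence is given to any of them. For the same reason the labelled tissue was not checked against endoderm markers. In pools of whole explants, more cells of a type and more RNA per cell cannot be told apart.

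**Figure D1:**
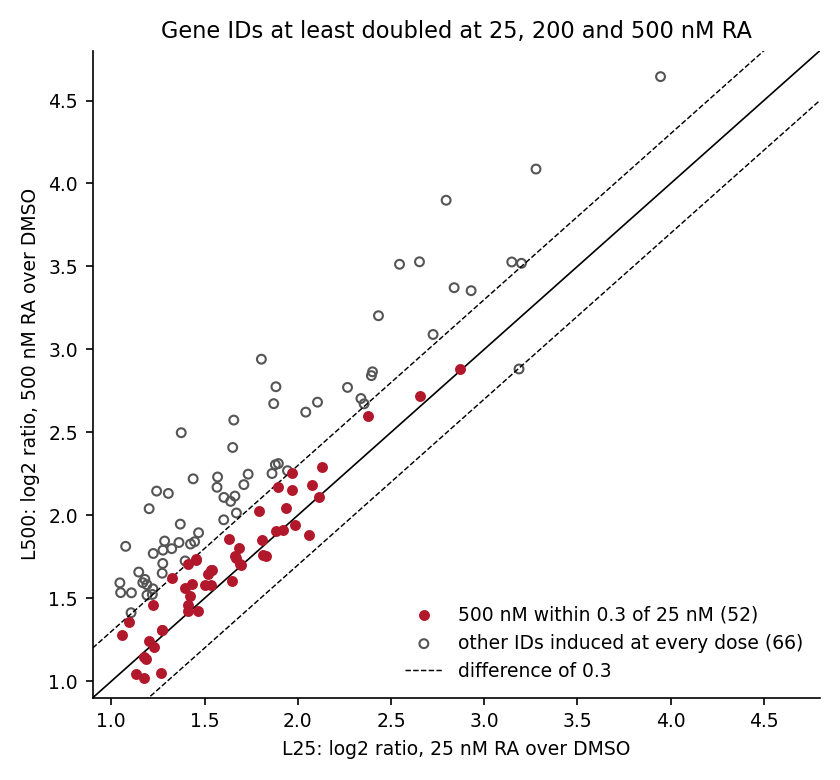
L25 on the x axis against L500 on the y axis for the 118 IDs induced at every concentration, each a log2 ratio of mean CPM over DMSO. The 52 IDs with L500 within 0.3 of L25 (filled) lie between the dashed lines, and 65 of the 66 others lie above them.

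Total counts were 17782601 to 39147729 per library. Libraries were scaled in the tests by TMM factors, which lower the weight of a few dominant IDs, and these factors were 0.963 to 1.06 except for 0.891 in 200 nM replicate 1. In that library 4.94% of the counts fell on 1 ID, which took 0.754% to 2.85% elsewhere. Its CPM by total counts were low in general: over the 24454 IDs tested, the median log2 ratio to the DMSO mean was -0.19 there and between -0.11 and 0.01 in the other libraries. Whether the share of that 1 ID had a part in the low CPM was not tested. Replicate 1 was the lowest of the 200 nM libraries for 46 of the 52 IDs by total counts and for 21 with TMM scaling. Means at 200 nM that enter L200 therefore include a library with low CPM, while the tests below use TMM scaling.

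Vehicle explants expressed most of the 52 IDs weakly. The DMSO mean ranged from 0.806 to 167 CPM with a median of 3.72 CPM. The median was 6.99 CPM over all IDs tested and 18.6 CPM over the IDs above both floors. In the 65 induced IDs that stood higher at 500 nM it was 4.39 CPM. The rule used the DMSO mean in every ratio and in a floor, so these levels are a description. Medians of the group means were 13.1 CPM at 25 nM, 12.5 at 200 nM and 14.6 at 500 nM, and 19 IDs stayed under 10 CPM in every group. Per unit of transcript length, on the deposited TPM scale, the level at 500 nM ran from 0.91 to 1842 TPM with a median of 6.95 TPM. On that scale XBXL10_1g16371 was not doubled at 25 or 500 nM. It had 4.41 ± 5.03 TPM in DMSO, 3.81 ± 0.512 at 25 nM, 8.88 ± 5.32 at 200 nM and 4.64 ± 2.34 at 500 nM (SD, n = 3 each).

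The contrasts with DMSO chose the IDs, so their size is a description. L25 was 1.06 to 2.87 with a median of 1.54, L200 was 1.01 to 2.96 with a median of 1.43, and L500 was 1.02 to 2.88 with a median of 1.70. L25 was at least 2 in 7 IDs, 1.5 to 2 in 23 and under 1.5 in 22. In an edgeR quasi-likelihood test fitted to all libraries, with Benjamini-Hochberg adjustment over all IDs tested, a call was an adjusted p under 0.05. All 52 were called higher than DMSO at 25, 200 and 500 nM, where 19.6%, 14.5% and 22.3% of all IDs were. In all 52, each of the 9 RA libraries lay above each DMSO library, which held for 6.63% of all IDs. Nothing is read from these counts, since the same values made the choice.

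The largest rises in the set belonged to XBXL10_1g8241 and XBXL10_1g17679. XBXL10_1g8241 had 2.004, 1.58 and 2.12 CPM in the DMSO libraries, 17.3, 18.1 and 15.8 at 25 nM, 17.5, 19.3 and 17.9 at 200 nM and 16.6, 16.8 and 18.1 at 500 nM. XBXL10_1g17679 had 1.53, 2.42 and 2.08 CPM in the DMSO libraries, 16.5, 15.6 and 13.9 at 25 nM, 16.0, 15.6 and 16.3 at 200 nM and 16.9, 15.7 and 15.6 at 500 nM. In both IDs the RA libraries formed 1 narrow band well above DMSO, and the 3 concentrations overlapped. Their L25, L200 and L500 were 2.87, 2.96 and 2.88 for XBXL10_1g8241 and 2.66, 2.71 and 2.72 for XBXL10_1g17679.

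Next in size were XBXL10_1g10836, XBXL10_1g28961, XBXL10_1g22730 and XBXL10_1g26205, with L25 of 2.38, 2.13, 2.11 and 2.08. XBXL10_1g28961 stood at 4.58, 5.51 and 4.32 CPM in the DMSO libraries, 23.0, 23.5 and 21.7 at 25 nM, 22.5, 24.2 and 22.7 at 200 nM and 25.2, 26.7 and 24.6 at 500 nM. The levels of XBXL10_1g26205 were 4.49, 5.68 and 5.14 CPM in the DMSO libraries, 22.5, 23.8 and 23.0 at 25 nM, 20.1, 25.2 and 24.6 at 200 nM and 24.5, 25.2 and 25.2 at 500 nM. These 2 IDs had like CPM in every group, and in both all 500 nM libraries lay above all 25 nM libraries. The difference was called in XBXL10_1g28961 (edgeR adjusted p = 0.0446) and was not in XBXL10_1g26205 (adjusted p = 0.162). In XBXL10_1g10836 the levels were 2.004, 1.74 and 2.16 CPM in the DMSO libraries, 11.8, 13.1 and 12.1 at 25 nM, 13.2, 17.3 and 15.6 at 200 nM and 14.5, 13.6 and 15.3 at 500 nM, with 25 nM below both higher concentrations. XBXL10_1g22730, which was lower at 200 nM, is given with the IDs of that pattern.

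XBXL10_1g1162 had by far the highest level in the set. Its TPM were 607 ± 10.8 in DMSO, 1779 ± 38.6 at 25 nM, 1384 ± 94.4 at 200 nM and 1842 ± 167 at 500 nM (SD, n = 3 each). The next at 500 nM were XBXL10_1g39808 with 182 ± 14.6 TPM, XBXL10_1g569 with 124 ± 1.58 TPM and XBXL10_1g36357 with 114 ± 2.12 TPM (SD, n = 3 each).

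**Figure D2:**
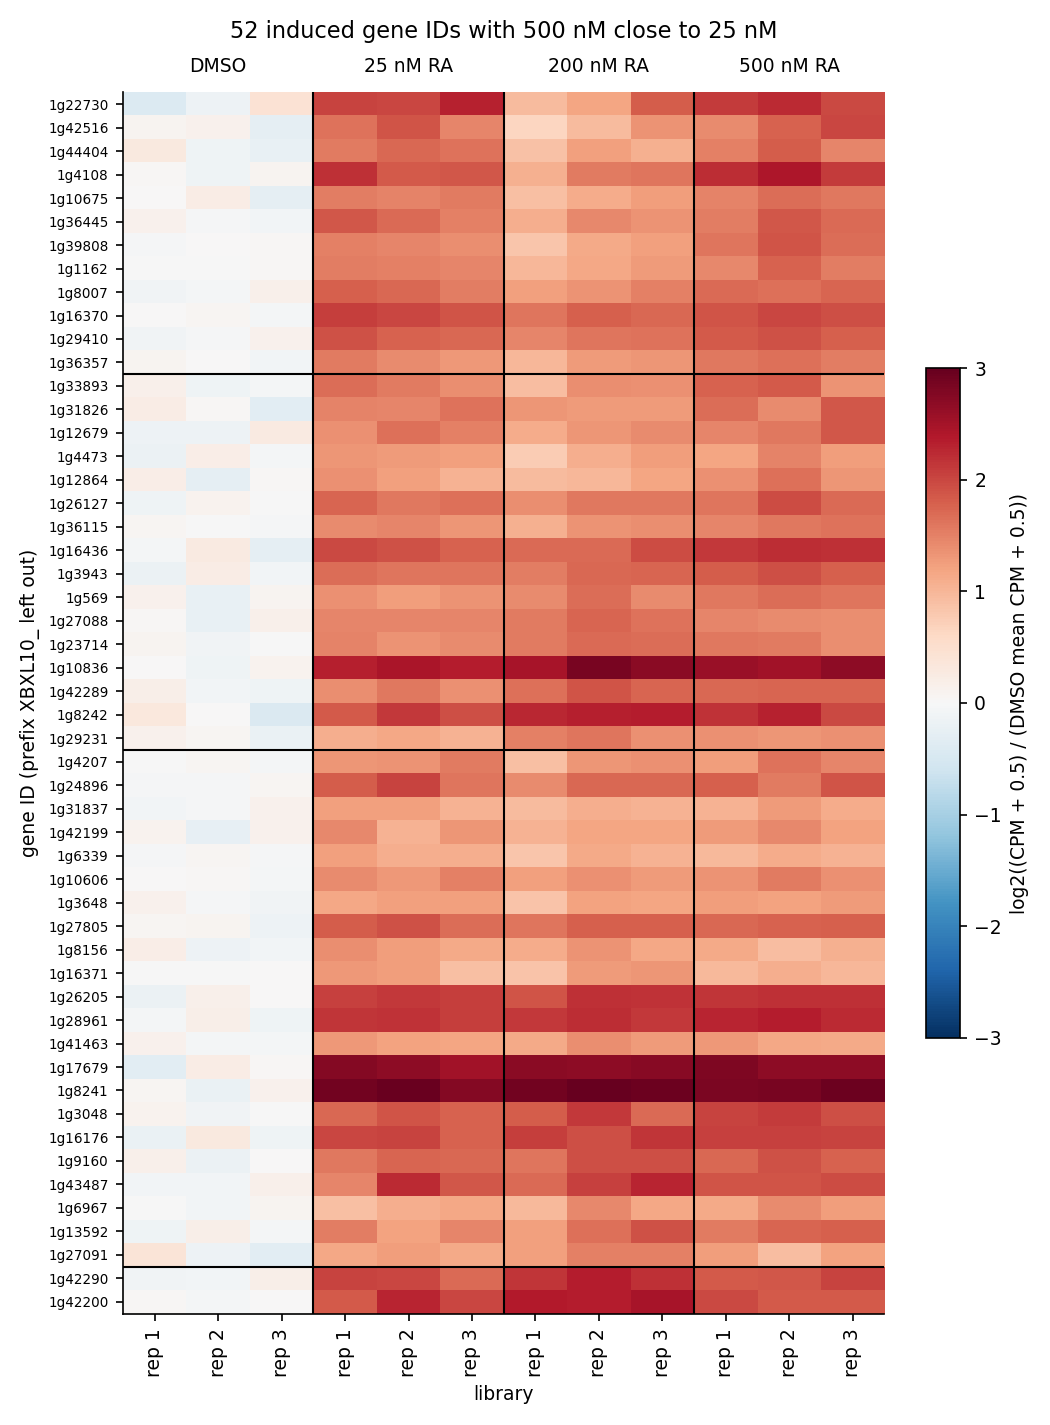
Log2 ratio of each library's CPM to the DMSO mean CPM, each with 0.5 added, for the 52 IDs (rows) in the 12 libraries (columns); the blocks from top to bottom are 12 IDs called lower at 200 nM than at 25 and 500 nM, 16 called in 1 of those 2 comparisons, 22 called in neither, and 2 called higher at 200 nM than at both. All RA columns are red, and within the top block the 200 nM columns are paler than those of 25 and 500 nM.

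The choice fixed how close the means at 500 and 25 nM are, so counts for this contrast are a description. At 25 nM the IDs had reached 72.3% to 131% of their rise at 500 nM, with a median of 93.7%. The edgeR test called 11 of the 52 higher at 500 than at 25 nM, and 8.85% of all IDs were called so. By edgeR 0 were called lower, against 8.13% of all IDs, and 0 had a lower level at an unadjusted p under 0.05. By DESeq2 6 were called higher and 0 lower. The number higher was 6 without 25 nM replicate 3 and 7 without 500 nM replicate 2, and 1 ID was called lower without 25 nM replicate 1. The mean at 500 nM lay above that at 25 nM in 38 IDs and below it in 14.

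The 95% interval of the log2 fold change of 500 over 25 nM lay within 0.3 of 0 for 21 IDs, within 0.5 for 47 and within 1 for all 52. Among IDs of at least 20 CPM in RA, XBXL10_1g31837, XBXL10_1g41463, XBXL10_1g29410 and XBXL10_1g1162 had the smallest differences of L500 from L25. XBXL10_1g31837 had 15.4, 15.8 and 17.8 CPM in the DMSO libraries, 39.2, 38.8 and 34.4 at 25 nM, 32.2, 35.2 and 34.1 at 200 nM and 34.1, 40.4 and 35.9 at 500 nM, and its log2 fold change of 500 over 25 nM was 0.0030 (95% interval -0.12 to 0.12). XBXL10_1g41463 had 39.9, 35.1 and 35.3 CPM in the DMSO libraries, 91.3, 85.0 and 84.5 at 25 nM, 81.3, 97.8 and 89.9 at 200 nM and 90.8, 83.4 and 81.8 at 500 nM, with a log2 fold change of 0.01 (-0.08 to 0.11). The RA libraries of these IDs overlapped among all 3 concentrations. XBXL10_1g29410 and XBXL10_1g1162, at 0.08 (-0.03 to 0.19) and 0.11 (0.0015 to 0.22), were lower at 200 nM. At the other end, XBXL10_1g569 had the largest log2 fold change of the set, 0.34 (0.21 to 0.46). Among other IDs with a high value, XBXL10_1g39808 had 0.31 (0.22 to 0.40) and XBXL10_1g42289 had 0.32 (0.21 to 0.43). For these IDs a level at 500 nM equal to that at 25 nM lies outside the interval, as it does for XBXL10_1g1162 and others of the set. The intervals are not adjusted for the number of IDs. By edgeR XBXL10_1g569, XBXL10_1g39808 and XBXL10_1g42289 were called higher at 500 than at 25 nM. XBXL10_1g1162 was not (adjusted p = 0.169). The rule used this contrast, so whether an ID had levelled off was not tested. The term saturated is therefore not used, and the set is called by its rule.

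**Figure D3:**
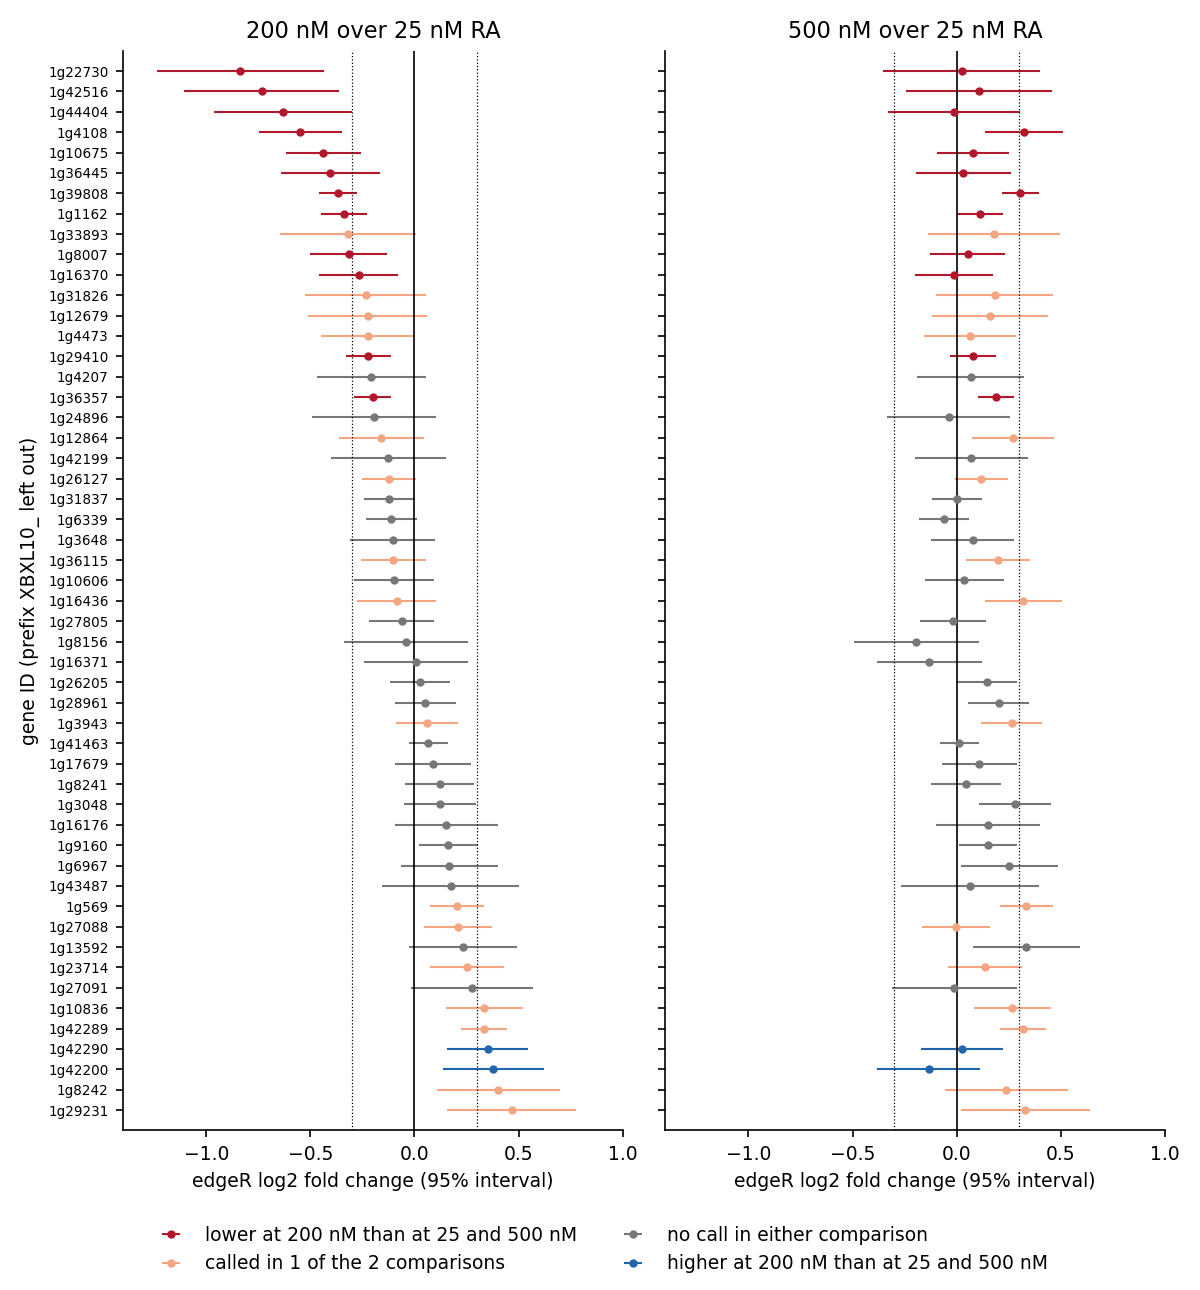
EdgeR log2 fold change of 200 over 25 nM RA (left) and 500 over 25 nM RA (right) with its 95% interval, for the 52 IDs in rows sorted by the left panel; dotted lines stand at 0.3 above and below 0, and colours give the calls at 200 nM. The left panel runs from -0.84 to 0.47, with 12 IDs called lower and 8 called higher, and in the right panel every point lies between -0.19 and 0.34.

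The 200 nM group asked of the same IDs whether the level in between was flat as well. The rule used it only through the floor of 1 on L200, which keeps out IDs that fell further at 200 nM, and the test uses the same 25 and 500 nM libraries as the rule. At 200 against 25 nM, 12 of the 52 IDs were lower and 8 were higher (edgeR, adjusted p under 0.05), while 9.67% of all IDs were lower and 10.2% higher. At 500 against 200 nM, 21 IDs were higher and 3 were lower, where 14.0% of all IDs were higher and 15.1% lower. The median of L200 - L25 over the 52 was -0.11, against -0.02 over all IDs, and the median of L500 - L200 was 0.13, against -0.02. With TMM-scaled CPM the medians over the 52 were -0.09 and 0.14. Without 200 nM replicate 1 the first median was -0.02, and without 25 nM replicate 1 it was -0.07. The count of 8 higher IDs was 4 by DESeq2, and it was 3 without each of 200 nM replicate 1, 200 nM replicate 2, 25 nM replicate 1 and 25 nM replicate 3. At 500 against 200 nM the count of 21 higher IDs was 15 by DESeq2. It was 14 without both 500 nM replicate 2 and 200 nM replicate 3.

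Both comparisons together sort the IDs by what they did at 200 nM. In 12 IDs the level at 200 nM was called lower than at both 25 and 500 nM, a pattern seen in 5.75% of all IDs. The reverse, higher at 200 nM than at both, was called in 2 IDs, and in 6.62% of all IDs. Neither comparison gave a call in 22 IDs, against 64.2% of all IDs, and the other 16 were called in 1 of them. The rule keeps L500 within 0.3 of L25, so an ID well below 25 nM at 200 nM is largely bound to lie below 500 nM too, and the 2 comparisons share the 200 nM libraries. Calls in both are therefore not independent, and nothing is read from their shares against those of all IDs. Without 500 nM replicate 2 and 200 nM replicate 3, 9 IDs were lower at 200 nM than at both, 1 was higher and 29 had no call. Both were left out because of an earlier look at these data, which is not shown here. By its TMM factor 200 nM replicate 3 did not stand apart, with 1.03 as in replicate 2. The 200 nM library with the low factor of 0.891, replicate 1, was kept in that fit. The count of 12 was 10 to 12 with any 1 library left out. That of 22 with no call rose to 32 without 200 nM replicate 1, to 33 without 200 nM replicate 2 and to 33 by DESeq2.

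Among the 12 IDs with a lower level at 200 nM, XBXL10_1g22730 had the lowest log2 fold change of 200 over 25 nM. It had 0.477, 0.675 and 1.27 CPM in the DMSO libraries, 4.79, 4.74 and 5.92 at 25 nM, 2.04, 2.46 and 4.12 at 200 nM and 5.11, 5.64 and 4.66 at 500 nM, so that all 200 nM libraries lay above DMSO and below every library at 25 and 500 nM. That fold change was -0.84 (SE 0.199, edgeR adjusted p = 0.00158), and that of 500 over 200 nM was 0.86 (adjusted p = 0.000728). Its DMSO levels rest on few counts, since 1 CPM was 17.8 to 24.5 counts in the DMSO libraries. With means of 5.15 CPM at 25 nM and 5.14 at 500 nM, it passed the floor of 5 CPM only through those groups. Near that floor the choice favours a high level in the groups that pass it, so its lower call is not free of the rule.

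XBXL10_1g4108 showed the same order at a higher level, with 3.68, 3.21 and 3.79 CPM in the DMSO libraries, 17.9, 14.02 and 14.2 at 25 nM, 8.06, 11.5 and 11.8 at 200 nM and 18.3, 21.5 and 16.9 at 500 nM. The 200 nM libraries lay below all others with RA. Here 200 over 25 nM gave a log2 fold change of -0.55 (SE 0.0993, edgeR adjusted p = 2.52e-05), and 500 over 200 nM gave 0.87 (adjusted p = 2.67e-10). XBXL10_1g42516 and XBXL10_1g44404, both at low levels, had log2 fold changes of -0.73 and -0.63 for 200 over 25 nM, with edgeR adjusted p-values of 0.00236 and 0.00345. Their means were 2.87 ± 0.821 and 3.34 ± 0.474 CPM at 200 nM, against 4.83 ± 0.765 and 5.24 ± 0.321 CPM at 25 nM (SD, n = 3 each). At 500 nM the means were 5.13 and 5.09 CPM. The floor of 5 CPM was thus passed by XBXL10_1g42516 only at 500 nM and by XBXL10_1g44404 only at 25 and 500 nM. Their lower calls are not free of the rule either.

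The 3 most counted IDs of the set belonged to this pattern. XBXL10_1g1162 had 167, 164 and 170 CPM in the DMSO libraries, 485, 478 and 459 at 25 nM, 333, 373 and 404 at 200 nM and 454, 566 and 482 at 500 nM. Its 200 nM libraries lay below all those at 25 and 500 nM, with a log2 fold change of -0.34 for 200 over 25 nM (SE 0.0514, edgeR adjusted p = 0.000204). XBXL10_1g39808 had 50.01, 51.3 and 52.1 CPM in the DMSO libraries, 146, 142 and 136 at 25 nM, 91.5, 113 and 120 at 200 nM and 157, 190 and 165 at 500 nM, a change of -0.37 (SE 0.0453, edgeR adjusted p = 6.73e-08). In that ID too, 200 nM lay below all other libraries with RA. XBXL10_1g36357 had 40.0, 38.5 and 35.7 CPM in the DMSO libraries, 113, 103 and 94.2 at 25 nM, 76.4, 93.7 and 96.3 at 200 nM and 114, 120 and 111 at 500 nM, and 1 of its 25 nM libraries lay among those at 200 nM. Its change was the smallest of the 12, at -0.20 (SE 0.0446, edgeR adjusted p = 0.000524).

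The other 5 of the 12 were XBXL10_1g10675, XBXL10_1g36445, XBXL10_1g8007, XBXL10_1g16370 and XBXL10_1g29410, with log2 fold changes of 200 over 25 nM of -0.44, -0.40, -0.32, -0.27 and -0.22. As a share of the rise at 500 nM, the 12 IDs stood at 42.9% to 79.6% at 200 nM with a median of 58.8%, against 75.3% to 142% with a median of 93.5% for the 22 IDs with no call. Members were sorted by these same values, so the gap between the shares is a description. In the 12, replicate 1 was the lowest 200 nM library by total counts, at a median log2 ratio to DMSO of 0.99, against 1.26 and 1.34 in replicates 2 and 3. With TMM scaling the 3 medians were 1.22, 1.27 and 1.34, against 1.66 to 1.77 in the 25 nM libraries and 1.70 to 1.88 in the 500 nM libraries.

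Higher levels at 200 nM were seen in XBXL10_1g42200 and XBXL10_1g42290. XBXL10_1g42200 had 9.78, 9.11 and 9.67 CPM in the DMSO libraries, 35.6, 48.7 and 39.6 at 25 nM, 51.6, 51.2 and 54.9 at 200 nM and 38.9, 35.3 and 35.1 at 500 nM. All 200 nM libraries lay above the others, with 25 nM replicate 2 next below. The log2 fold change of 200 over 25 nM was 0.38 (SE 0.108, edgeR adjusted p = 0.0325), and the call was lost with a replicate block (adjusted p = 0.0903) and with the compared groups alone (0.181). It was also lost, at 0.0576 to 0.0917, without any 1 of the 3 DMSO libraries, 200 nM replicates 1 or 3, or 25 nM replicate 3. In XBXL10_1g42290 the levels were 2.53, 2.59 and 3.22 CPM in the DMSO libraries, 12.9, 12.7 and 10.2 at 25 nM, 14.01, 16.3 and 14.5 at 200 nM and 11.3, 11.5 and 12.8 at 500 nM, with 200 nM above all libraries at 25 and 500 nM. Its log2 fold change was 0.35 (SE 0.0971, edgeR adjusted p = 0.00565), and the adjusted p was 0.0775 without 25 nM replicate 3. The pattern was called in 1 ID without DMSO replicate 1, DMSO replicate 3 or 200 nM replicate 1, and in 0 without 25 nM replicate 3. It was called in 2 IDs without DMSO replicate 2 or 200 nM replicate 3, and with the compared groups alone. The call of XBXL10_1g42200 was lost in these fits, so the 2 were not the same pair.

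XBXL10_1g29231 and XBXL10_1g8242 had the largest estimates for 200 over 25 nM, at 0.47 (SE 0.154) and 0.40 (SE 0.147). Both stayed at low levels. The means of XBXL10_1g29231 were 4.02 CPM at 25 nM, 5.45 at 200 nM and 4.92 at 500 nM. It passed the floor of 5 CPM on the highest group mean only through 200 nM. Its higher call there is therefore not free of the rule. XBXL10_1g29231 had 1.81, 1.69 and 1.35 CPM in the DMSO libraries, 3.97, 4.20 and 3.89 at 25 nM, 5.49, 5.90 and 4.95 at 200 nM and 4.96, 4.81 and 5.004 at 500 nM. In XBXL10_1g8242 the levels were 1.38, 1.01 and 0.612 CPM in the DMSO libraries, 4.86, 6.03 and 5.25 at 25 nM, 6.72, 7.01 and 7.21 at 200 nM and 6.21, 6.89 and 5.48 at 500 nM. The 200 nM libraries of both lay above all 25 nM libraries, and overlapped with those at 500 nM. Their edgeR adjusted p-values were 0.0233 and 0.0427, and by DESeq2 they were 0.0698 and 0.114, over the threshold. Both calls were also lost without 200 nM replicates 1 or 2 or 25 nM replicates 1 or 3, and that of XBXL10_1g8242 without 200 nM replicate 3 or 500 nM replicate 3 as well, with adjusted p-values of 0.0511 to 0.216 over these fits. The remaining 4 higher calls were XBXL10_1g10836, XBXL10_1g42289, XBXL10_1g23714 and XBXL10_1g569, with log2 fold changes of 0.33, 0.33, 0.25 and 0.20. Of these, XBXL10_1g42289 had the smallest adjusted p by edgeR, 7.59e-06, with 19.9, 16.7 and 16.1 CPM in the DMSO libraries, 47.0, 54.0 and 46.1 at 25 nM, 56.2, 65.9 and 60.3 at 200 nM and 58.7, 60.2 and 60.1 at 500 nM.

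**Figure D4:**
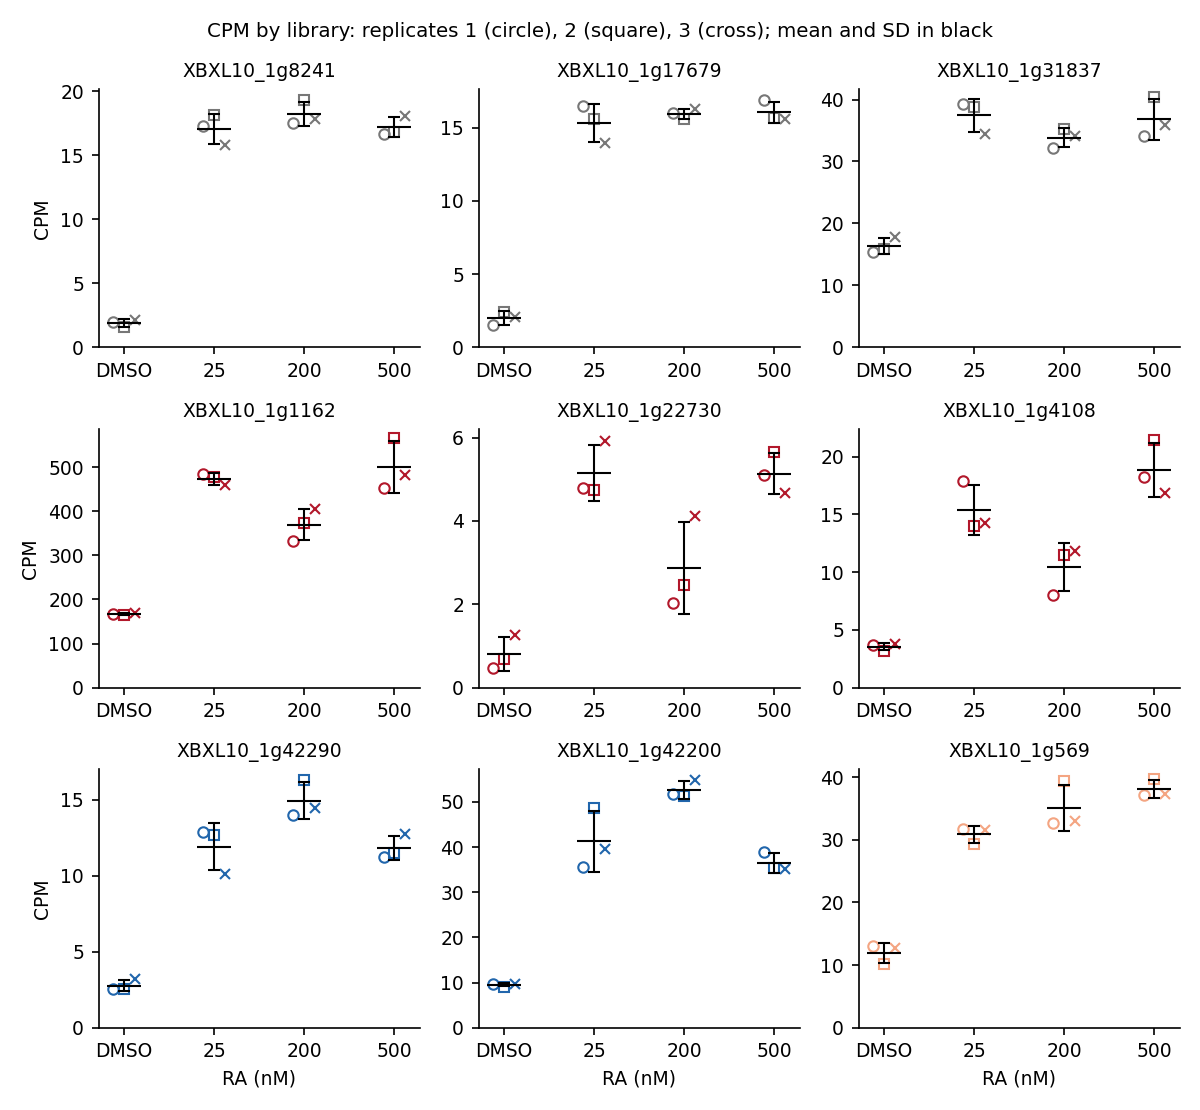
CPM of 9 IDs in every library against RA concentration, with the mean and SD of each group (n = 3); grey IDs had no call at 200 nM, red ones were lower and blue ones higher there than at 25 and 500 nM, and the orange one was higher at 200 than at 25 nM. XBXL10_1g8241 stayed between 15.8 and 19.3 CPM in all 9 RA libraries, while XBXL10_1g1162 had 333 to 404 CPM at 200 nM and 454 to 566 CPM at 500 nM.

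An ID with no call is not thereby shown to be flat. The 95% interval of 200 over 25 nM lay within 0.3 of 0 for 16 of the 52 IDs and within 0.5 for 35. For 33 IDs both this interval and that of 500 over 25 nM lay within 0.5. By group means, 31 IDs had L200 within 0.3 of both L25 and L500. In 28 IDs L200 was the lowest of the 3 ratios, in 14 it was the highest, in 8 the ratios rose with the concentration and in 2 they fell. A flat line through the 3 concentrations does not describe the 12 IDs called lower at 200 nM, which stood below 25 nM there and near it or above it at 500 nM.

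Close to the limits of the rule, the values of IDs on either side were nearly alike. XBXL10_1g569 and XBXL10_1g13592 were just inside the limit of 0.3, with L500 - L25 of 0.299 and 0.293, and XBXL10_1g29661 was just outside, with 0.304. XBXL10_1g40727 was just outside on the lower side, with -0.31, and was the 1 ID with a lower ratio at 500 than at 25 nM by that margin. XBXL10_1g6339 and XBXL10_1g42516 were the last above the floor, with a smallest ratio of 1.01 each, and XBXL10_1g9071 and XBXL10_1g26409 the first below it, with 0.998 each. The lowest DMSO mean in the set was 0.806 CPM. The highest group mean was 5.13 CPM in XBXL10_1g42516, just inside, and 4.98 CPM in XBXL10_1g25602, just outside.

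Membership depended on the scaling and on the libraries. TMM-scaled CPM gave 58 IDs, of which 46 were among the 52, and TPM gave 52 IDs, of which 33 were. With any 1 library left out the number was 47 to 62, and 35 of the 52 IDs stayed in every such case. Leaving out 200 nM replicate 1 kept all 52 and added 10.

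The 52 IDs were set beside the 65 that went on rising. The median L25 was 1.54 in the 52, against 1.60 in the 65, and the upper quartile was 1.89, against 2.11. The median DMSO level was 3.72 CPM, against 4.39 CPM. At 200 nM the median of L200 - L25 was -0.11 in the 52, against -0.00036 in the 65, of which 11 were called higher and 4 lower than at 25 nM. The sets differed by the rule in L500, whose median was 1.70 in the 52, against 2.17 in the 65. As a share of the rise at 500 nM, the 52 had reached a median of 93.7% at 25 nM and 87.1% at 200 nM, against 61.6% and 60.1% in the 65. No test was run between the 2 sets, which were parted by their values.

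Length and scatter were not used by the rule. Relative length was taken as counts per TPM, scaled within each library by the median of the IDs over both floors, and then as the median over libraries. It was 1.04 at the median of the 52 and 0.162 to 5.83 in range, against 1.02 over all IDs above both floors and 0.891 over all IDs tested, among IDs with at least 1 TPM in a library. It was 0.608 at the median of the 12 IDs lower at 200 nM and 1.16 in the 22 with no call. Replicates scattered by a median coefficient of variation of 11.7% in DMSO, 7.29% at 25 nM, 10.7% at 200 nM and 6.56% at 500 nM, against 9.45%, 9.33%, 11.99% and 9.12% over all IDs tested. Over the IDs above both floors the medians were lower than in the 52 in every group, at 5.74%, 6.33%, 9.69% and 5.98%. Scatter depends on the level, which differs between these sets. None of the 52 had counts identical to those of another ID, although similar L and S gene copies of this species could still share reads.

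**Figure D5:**
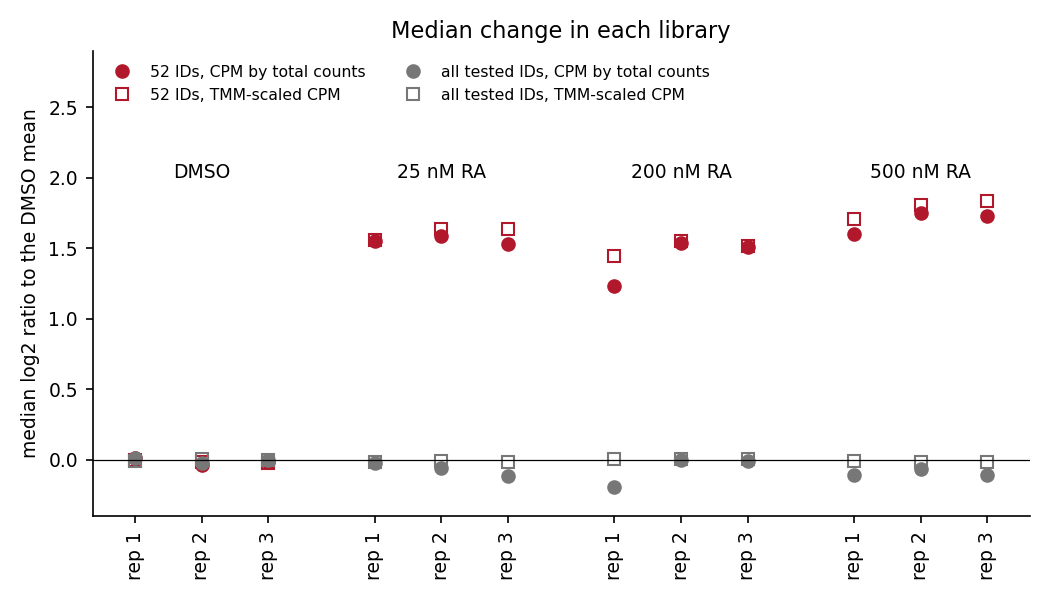
Median log2 ratio to the DMSO mean in each of the 12 libraries, for the 52 IDs and for all 24454 IDs tested, with CPM by total counts (filled) and TMM-scaled CPM (open). In 200 nM replicate 1 the median of the 52 was 1.24 by total counts and 1.45 with TMM scaling, and the other 200 nM libraries lay between 1.51 and 1.55 on both scales.

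Library medians over the 52 IDs, with TMM scaling, were 1.56, 1.64 and 1.64 at 25 nM, 1.45, 1.55 and 1.52 at 200 nM, and 1.71, 1.81 and 1.83 at 500 nM. On that scale all 200 nM medians were below all the others with RA. By total counts they were not, with 1.54 in 200 nM replicate 2, against 1.53 in 25 nM replicate 3. With TMM scaling 500 nM replicate 2 was the highest of its group for 27 of the 52 IDs and 200 nM replicate 3 for 18, and by total counts they were so for 30 and 26. Each was also the lowest of its group for 18 IDs with TMM scaling, and by total counts for 8 and 3. The part of these libraries in the results was not tested beyond the counts given without them.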

How the data were processed

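RNA-seq libraries from 12 pools of foregut explants were compared. Gene-level expected counts were deposited by the authors as whole numbers, so rounding changed 0 values. The TPM that the authors deposited correct for transcript length and library size. RSEM 1.3.0 and Bowtie2 are named in the submitters' processing notes, without their roles, and no build or annotation is named in the sources used. RSEM divides reads that fit several genes, so counts of similar copies are estimates. One row that names no gene, with a count of 0, was left out.

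CPM were computed from the expected counts. Tests used edgeR 4.0.16 in R 4.3.3: filterByExpr (minimum count 10; 24454 IDs), TMM, and a robust quasi-likelihood fit of 4 groups to all 12 libraries, with Benjamini-Hochberg adjustment over all IDs tested. All 52 IDs passed the filter, which a high RA level favours. Standard errors came from the fitted information and the quasi-likelihood dispersion, with counting error as the lower bound. Steps were tested on simulated data. Alternatives were DESeq2 1.42.0, limma 3.58.1 on log2(TPM + 1) or log2(TPM + 0.1) with a mean TPM of at least 1 or no filter, other filters and scalings, a replicate block, the compared groups alone, and libraries left out.

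IDs named are the 6 with the largest L25, the 4 with the highest RA CPM, the 4 of at least 20 CPM with the smallest difference of L500 from L25, the 4 lowest and 4 highest called at 200 against 25 nM, and those next to the limits; other IDs were named after their values were seen. The members, the rule and these lists were chosen with earlier results of these data known. Gene lists and markers were not run, since no ID has a symbol.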

Additional observations from a re-analysis of the deposited data

How the results depend on the processing

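A tolerance of 0.5 gave 87 IDs and a highest mean of at least 10 CPM gave 33; the other settings of the rule gave 39 to 67. With 1 library left out the ranges were as follows: at 200 against 25 nM 3 to 8 IDs were higher, at 500 against 25 nM 6 to 11 were higher and 0 to 1 lower, and 0 to 2 were higher at 200 nM than at both. DESeq2 gave 4 higher at 200 against 25 nM and 6 higher at 500 against 25 nM. Limma on log2(TPM + 1) and on log2(TPM + 0.1), each testing 47 of the 52 IDs, and on log2(TPM + 1) without a filter, testing all 52, gave 1, 1 and 0 higher at 200 against 25 nM, 11, 9 and 10 higher at 500 against 200 nM, 1, 1 and 0 higher at 500 against 25 nM, 1, 1 and 0 higher at 200 nM than at both, and 34, 36 and 40 with no call at 200 nM. The last 2 gave 7 and 7 lower at 200 nM than at both, and 1 and 1 lower at 500 against 200 nM. Without 500 nM replicate 2 and 200 nM replicate 3, 1 was lower at 500 against 200 nM and 1 higher at 200 nM than at both. The cause was not tested. With a replicate block 12 IDs were lower and 7 higher at 200 against 25 nM, and 1 was higher at 200 nM than at both; over 18 pairs of libraries with a common number, the correlation of their deviations was -0.0535 to 0.107, so the numbers were not taken to pair samples. Of 518 alternative values of named IDs, 485 stayed on their side of the threshold with the same sign, 33 lost the call and 0 changed sign. These values include contrasts with DMSO, which the rule used to choose the IDs. Nothing is therefore read from the share that stayed. Depth limits the weakest DMSO levels, since 1 CPM was 17.8 to 24.5 counts in the DMSO libraries.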

Other observations

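ID numbers of the set were close together more than once. Consecutive numbers were held by 4 pairs: XBXL10_1g8241 and XBXL10_1g8242, XBXL10_1g16370 and XBXL10_1g16371, XBXL10_1g42199 and XBXL10_1g42200, and XBXL10_1g42289 and XBXL10_1g42290. Among the 65 IDs that went on rising there were 2 such pairs. Whether the numbers follow the position of genes is not given in the sources used here, and whether such IDs share reads was not tested. Among the 60 tested IDs outside the set whose number is 1 away from a member, 25 were called higher than DMSO at 25 nM, 18 at 200 nM and 28 at 500 nM (edgeR, adjusted p under 0.05), which is 41.7%, 30.0% and 46.7%, against 19.6%, 14.5% and 22.3% of all IDs tested. At the same concentrations 9, 8 and 13 of the 60 were called lower than DMSO. The share of all IDs called lower than DMSO is not given here, so nothing is read from these lower counts. Of the 60, 3 had L25, L200 and L500 all at least 1, as did 0.716% of all IDs tested. XBXL10_1g10836, XBXL10_1g27091 and XBXL10_1g42290 of the set had L25 of 2.38, 1.19 and 1.92, against 2.93, 3.20 and 2.84 in their number neighbours XBXL10_1g10837, XBXL10_1g27092 and XBXL10_1g42291, whose L500 were 3.35, 3.52 and 3.37. These IDs were chosen after the values of the set were seen, and no test was run.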
